A study of Mus musculus with 2 samples.

Results

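Prostaglandins, thromboxane and leukotrienes are lipid mediators made from arachidonic acid, and 10 genes of their synthesis were followed in sorted alveolar macrophages (AMs), the resident macrophages of the airspace. The genes are *Ptgs1* and *Ptgs2* (cyclooxygenases), *Ptges* and *Ptges3* (prostaglandin E synthases), *Hpgds* (prostaglandin D synthase), *Tbxas1* (thromboxane synthase), and *Alox5*, *Alox5ap*, *Ltc4s* and *Lta4h* (the leukotriene branch). They were taken as a list of symbols, and all 10 were found among the 32285 genes of the tables. AMs came from C57BL/6 mice labelled as 10 weeks old, with 1 library labelled as control (vehicle) and 1 as tumor, from animals bearing an orthotopic lung cancer, grown from Lewis lung carcinoma (LLC) cells injected into the left lung. The lungs of female mice were digested with collagenase and dispase in the warm, and AMs were isolated on a cell sorter, from a population that the study describes as CD45+ autofluorescent cells, positive for Siglec-F and F4/80 and also CD11c+ and CD11b-. The sources used here do not give the number of animals behind each library, and each condition has 1 library, so library, animal and condition cannot be told apart and no test was possible.

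Cyclooxygenases turn free arachidonic acid into prostaglandin H, which terminal synthases then convert into prostaglandins E and D or thromboxane. In the other branch, 5-lipoxygenase with its partner protein FLAP makes leukotriene A, which becomes leukotriene B through *Lta4h* or the cysteinyl leukotriene C through *Ltc4s*. Resting AMs are known as a source of thromboxane and leukotrienes, and cyclooxygenase-2, the product of *Ptgs2*, is known as the isoform that inflammatory signals induce in macrophages.

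Barcodes with at least 500 genes and at most 10% mitochondrial counts were kept, 6185 of 8485 in the control library and 7666 of 9175 in the tumor library, with 64850143 and 68801889 unique molecular identifiers (UMIs) and medians of 10370 and 8264 UMIs per cell. All 10 AM markers, among them *Chil3*, *Ear1*, *Marco* and *Siglecf*, were detected in both libraries, with a summed level of 17344 counts in 1000000 UMIs (CPM) in control and 15006 CPM in tumor. Most of each sum was *Chil3* (11656.5 CPM in control and 10519 CPM in tumor). *Fabp4* (349 and 372 CPM) and *Plet1* (1347 and 1559 CPM) were higher in tumor. The other markers were lower there, among them *Marco* (585 and 207 CPM), *Ear1* (516 and 286 CPM) and *Car4* (251 and 147 CPM). Markers of other types differed between the libraries too, and their part in the results below was not tested. The summed level of the 8 monocyte and tumor-associated macrophage (TAM) markers was 9.41 CPM in control and 67.9 CPM in tumor, that of the 6 fibroblast markers 0.771 and 32.4 CPM, and that of the 7 neutrophil markers 59.5 and 114 CPM, mostly from *S100a8* (45.2 and 103 CPM), whereas *S100a9* was at 4.996 and 0.0436 CPM, with *Camp* and *Ltf* at 0 in control and *Retnlg* and *Ly6g* at 0 in tumor. Of the fibroblast markers, *Lum* was at 0 in control. The epithelial markers summed to 84.5 CPM in control and 21.99 CPM in tumor, and those of B and plasma cells to 6.08 and 1.83 CPM. Mast cells, platelets and eosinophils, other known sources of these mediators, were hardly represented. Of 7 mast cell and basophil markers, 6 were at 0 in control and 4 in tumor, with summed levels of 0.216 and 0.233 CPM, and of 6 platelet markers 4 and 3 were at 0, with 3.82 and 5.54 CPM. The defining genes *Ms4a2* and *Mcpt8* of mast cells and basophils and *Prg2* and *Epx* of eosinophils were at 0 in both. The libraries shared 17 cell barcodes after the filter.

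Among the 10 genes, *Ptgs2* differed most between the libraries. It had 0.308 CPM in control (95% exact Poisson interval 0.188 to 0.476, 20 UMIs) and 16.7 CPM in tumor (15.7 to 17.7, 1147 UMIs), a 54.1-fold higher level in tumor (34.8 to 88.8). The control value rests on few cells, since the 5 highest held 14 of the 20 UMIs. The log2 ratio was 5.76, but 7.32 without the 5 highest cells of each library and 4.82 with tumor clusters weighted as in control, both outside the counting interval of 5.12 to 6.47. *Ptgs1* and *Ptges* were also higher in tumor, *Alox5* and *Ltc4s* were lower, and the other 5 genes differed by at most 1.13-fold. Past 2-fold, 1 of the 10 genes was higher in tumor, beside 6.02% of the 13581 genes with at least 20 UMIs, and 0 were lower, beside 6.91% (12.9% in either direction). Past 1.5-fold, 3 were higher (*Ptgs1*, *Ptgs2*, *Ptges*), beside 9.79%, and 1 was lower (*Alox5*), beside 13.7%. Their log2 ratios had a median of 0.04, and those of all genes with at least 20 UMIs one of −0.07. All intervals cover counting error only, and not variation between cells or animals.

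**Figure D1:**
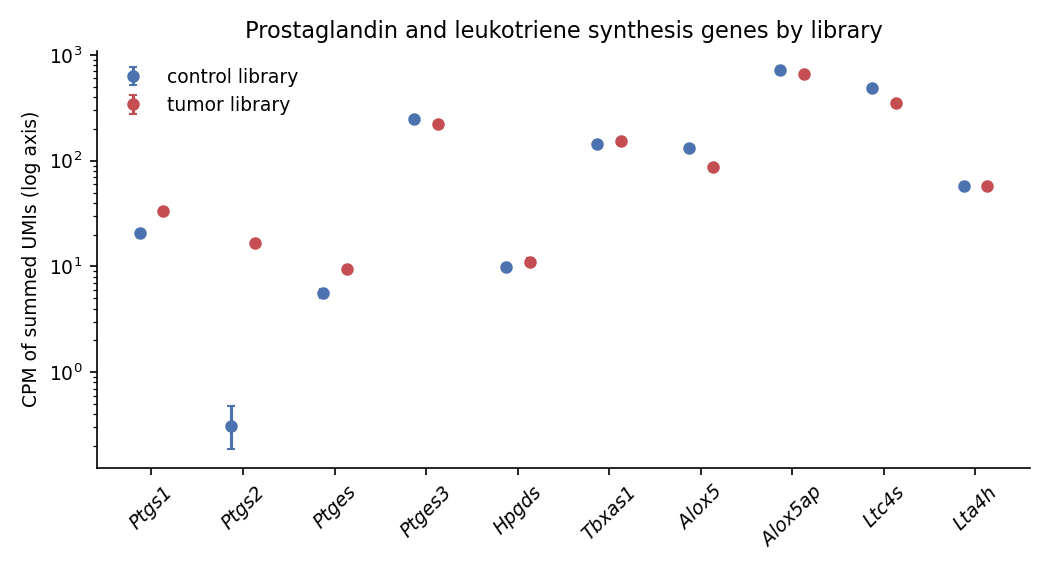
Level of each of the 10 genes in the control (blue) and tumor (red) library, as CPM of UMIs summed over the kept cells, on a log axis with bars for exact 95% Poisson intervals, which most points hide. *Ptgs2* is the only gene whose points lie more than 10-fold apart, at 0.308 and 16.7 CPM.

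The cyclooxygenase isoforms differ in the DNA around their starts and in the end of the message. RefSeq promoters (GRCm38.p6) were found for 9 of the 10 genes, and not for *Alox5ap*. The bases before the start of *Ptgs2* (chr1:150099781-150100030, plus strand, 61.6% GC) and of *Ptgs1* (chr2:36230176-36230425, plus strand, 48.0% GC) are shown, with the first 30 bases of *Ptgs2* (chr1:150100031-150100060), because the isoforms differed in these data, with matched motifs in capitals.
*Ptgs2*, 250 bases before the start: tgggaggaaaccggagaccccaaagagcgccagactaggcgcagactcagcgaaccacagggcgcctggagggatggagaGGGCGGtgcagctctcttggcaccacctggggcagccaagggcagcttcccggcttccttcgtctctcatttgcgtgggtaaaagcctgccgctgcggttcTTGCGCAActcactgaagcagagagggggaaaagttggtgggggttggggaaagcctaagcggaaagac
*Ptgs2*, first 30 bases of the gene: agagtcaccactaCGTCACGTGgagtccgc
*Ptgs1*, 250 bases before the start: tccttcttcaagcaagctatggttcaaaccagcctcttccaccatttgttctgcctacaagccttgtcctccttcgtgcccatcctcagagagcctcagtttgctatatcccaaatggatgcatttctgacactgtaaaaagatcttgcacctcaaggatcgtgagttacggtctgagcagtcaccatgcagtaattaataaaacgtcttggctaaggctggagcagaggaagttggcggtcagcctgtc

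A set of 6 motifs was searched on both strands over 280 bases, from 250 before to 30 after the start. The *Ptgs2* window held a GC box (GGGCGG, found in 34.7% of all 32851 promoters of this length), a C/EBP site (TTGCGCAA, 0.18%), a cAMP response element (CRE) core (TGACG, read as CGTCA on the given strand, 19.9%) and an E-box (CACGTG, 6.79%), of which the last 2 overlap by 2 bases. It held neither a TATA box (TATAAA, 13.1%) nor an AP-1 site (TGANTCA, 7.46%), and the *Ptgs1* window held none of the 6 motifs. Among the other genes, *Alox5*, *Ptges* and *Ptges3* had a GC box, *Tbxas1* had a TATA box and an AP-1 site, *Ptges3* had a CRE core, and *Hpgds*, *Ltc4s* and *Lta4h* had no match. The C/EBP letters were found in *Ptgs2* alone among the 9 genes. A match is a description of letters, and no binding was measured. Bases outside the 280-base window around the RefSeq start were not searched, so a motif missing from a window can lie outside it.

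The 3′ untranslated region (UTR) of *Ptgs2* (GENCODE M21, 2445 bases) holds 14 copies of ATTTA, the pentamer of AU-rich elements known from short-lived messages of inflammatory genes, overlapping copies counted. Of 21112 genes with a 3′ UTR, 2.94% have at least 14. This share is not adjusted for length, and the median 3′ UTR of these genes has 954 bases. *Ptgs1*, with 921 bases, has 0, as have *Ptges*, *Ltc4s* and *Lta4h*. *Ptges3* has 4, and *Alox5*, *Alox5ap*, *Hpgds* and *Tbxas1* have 2 each. Per 1000 bases, *Ptgs2* has 5.73 copies, *Alox5ap* 4.77, *Ptges3* 3.37, *Alox5* 3.12, *Tbxas1* 2.56 and *Hpgds* 0.76. The 30 bases of the *Ptgs2* 3′ UTR with the most copies begin at base 12 of the UTR and hold 4, in capitals.
*Ptgs2*, 30 bases of the 3′ UTR: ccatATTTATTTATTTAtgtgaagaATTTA

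*Ptgs1*, the isoform known as constitutive, had 20.9 CPM in control (19.8 to 22.01) and 33.5 CPM in tumor (32.2 to 34.9), a log2 ratio of 0.68 (exact binomial interval 0.59 to 0.78). Shares of cells with a UMI depend on depth, so each cell was thinned to 3800 UMIs, which left out 595 control and 729 tumor cells below that depth. At this depth *Ptgs1* was seen in 6.601% of 5590 control cells and 10.7% of 6937 tumor cells, a difference of 4.07 percentage points (3.08 to 5.05), and unthinned in 16.0% and 21.7%. *Ptgs2* was seen in 1 thinned control cell (0.0179%) and in 162 thinned tumor cells (2.34%), a difference of 2.32 percentage points (1.97 to 2.70), and unthinned in 0.178% and 3.86%. At that depth 6.62% of control cells and 12.8% of tumor cells had a UMI of either cyclooxygenase, and 0 control and 13 tumor cells had both (unthinned 3 and 85).

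Of the terminal synthases, *Ptges*, the inducible microsomal prostaglandin E synthase, had 5.57 CPM in control (5.01 to 6.17) and 9.36 CPM in tumor (8.65 to 10.1), a log2 ratio of 0.75 (0.56 to 0.94). Its thinned share was 1.97% in control and 3.36% in tumor. *Ptges3*, which encodes the co-chaperone p23 and is also named cytosolic prostaglandin E synthase, had 249.7 CPM in control and 225 CPM in tumor, a log2 ratio of −0.15 (−0.18 to −0.12). *Hpgds* had 9.85 CPM in control and 11.1 CPM in tumor, a log2 ratio of 0.17 (0.02 to 0.32), and its thinned shares, 3.52% and 3.81%, differed by 0.28 percentage points with an interval that spans 0 (−0.40 to 0.95). *Tbxas1* had 145 CPM in control and 154 CPM in tumor, a log2 ratio of 0.09 (0.05 to 0.13), and was seen in 41.1% and 43.0% of thinned cells. Of the 4 terminal synthase genes, *Ptges* was the only one past 1.5-fold. Levels are not compared between genes here.

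In the leukotriene branch, the 5-lipoxygenase gene *Alox5* had 133 CPM in control (130.2 to 136) and 87.3 CPM in tumor (85.1 to 89.5), a log2 ratio of −0.61 (−0.66 to −0.56). It was seen in 39.6% of thinned control cells and 28.5% of thinned tumor cells, 11.2 percentage points fewer (interval of the difference −12.8 to −9.48). *Alox5ap*, which encodes FLAP, had 719 CPM in control and 665 CPM in tumor, a log2 ratio of −0.11 (−0.13 to −0.09), and was seen in 91.1% and 89.0% of thinned cells. *Ltc4s*, the leukotriene C synthase gene, had 489 CPM in control (483 to 494) and 350.2 CPM in tumor (346 to 355), a log2 ratio of −0.48 (−0.50 to −0.46), with thinned shares of 80.7% and 68.4%. *Lta4h*, the hydrolase gene of leukotriene B synthesis, had 57.3 CPM in both libraries, a log2 ratio of 0.00 (−0.06 to 0.07). Cells with a UMI of *Alox5*, *Alox5ap* and *Ltc4s* together made up 30.2% of thinned control cells (29.0% to 31.5%) and 17.9% of thinned tumor cells (17.0% to 18.8%), and unthinned 64.6% and 42.4%. *Ltc4s* overlaps the antisense gene *Gm26542*, which had 324 control and 229 tumor UMIs against 31682 and 24097 for *Ltc4s*, and the GENCODE model of *Tbxas1* overlaps *Hipk2* on the other strand (6145 and 5984 UMIs). Reads of such pairs are told apart only if the counting used strand.

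The call of *Alox5* past 1.5-fold was not kept under every setting. Its log2 ratio was −0.40 without the clusters that were mostly of tumor cells, −0.49 without cells holding a monocyte or TAM marker UMI, −0.54 with the median ratio of all genes set to 0, −0.57 as a mean of CPM per cell, and −0.34 when tumor levels were weighted by how control UMIs fall into clusters. The last weighting gave 0.53 for *Ptgs1*, just under 1.5-fold, and 4.82 for *Ptgs2*.

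The cells were then sorted into 15 clusters of at least 50 cells, with the 10 genes and other eicosanoid genes left out of the genes that defined them, but not the inflammatory genes described further on. The clusters are named by letter and leading genes. Cluster B, led by *Apoe*, *S100a4* and *S100a6*, held 102 control and 2001 tumor cells. Cluster C was led by *Cxcl1*, *Cxcl2* and *Tnf*, cluster D by *Mmp12*, cluster E by *Hspa1b*, *Egr1* and *Jun*, cluster H by *Ear1* and *Ear2*, cluster A by *Acaa1b* and *Fabp1*, cluster G by MHC class II genes, cluster J by cell cycle genes, and cluster K by *Slc40a1* and *Isg15*. Cluster F, led by nuclear RNAs such as *Neat1*, had a median of 2993 UMIs per cell, and cluster I, led by *Copz1* and *Pim1*, a median of 3320. Cluster M, with 23 control and 49 tumor cells, was led by *Dcn*, *Col3a1* and *Igfbp4*, with *S100a9* and *Igkc* also among its leading genes, and was left unnamed because it held markers of several types. Leaving it out took the fibroblast marker UMIs of tumor cells with *Ptgs2* from 1719 to 8. In tumor cells without *Ptgs2* it took those of T and NK cells from 96 to 14 and those of B and plasma cells from 124 to 32. In the whole control library the fibroblast markers had 50 UMIs.

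*Ptgs2* had a higher level in tumor in 11 of the 11 clusters with at least 50 cells in each library. Among tumor cells it was at 28.5 CPM in cluster B (26.2 to 30.9), 25.2 CPM in cluster C (21.9 to 28.8), 12.5 CPM in cluster E (10.1 to 15.2), 12.1 CPM in cluster J, 11.04 CPM in cluster I, 9.91 CPM in cluster F, 8.54 CPM in cluster K, 7.51 CPM in cluster G, 5.13 CPM in cluster D (3.78 to 6.80), 1.28 CPM in cluster H (0.416 to 2.99) and 0.927 CPM in cluster A (0.301 to 2.16). The intervals of B and C overlapped and lay above those of the other 9 clusters, those of E, J, I, F, K and G overlapped each other, and those of H and A lay below all others. In the smaller clusters L, N and O, mostly of tumor cells, the level was 12.7, 27.2 (13.6 to 48.7) and 2.65 CPM. In the control library the highest level was 2.15 CPM in cluster E, where 10 of the 20 UMIs lay. The intervals of the libraries overlapped in cluster H (0.00480 to 1.06 CPM in control) and in no other of the 11. Clusters A, B, I and J had 0 control UMIs. Over the level that 3 control UMIs would give, the tumor level was 5.29-fold in A, 9.98-fold in B, 2.53-fold in I and 22.8-fold in J. These folds leave out the counting error of the tumor level and are not lower bounds.

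Cluster B held 566 of the 1147 tumor *Ptgs2* UMIs (49.3%), a share that depends on how finely cells are split (23.6% in a leading cluster of 321 tumor cells at a clustering resolution of 1.5), and 147 of its 2001 tumor cells had one (7.35%, exact binomial interval 6.24% to 8.58%). Cluster C held 216 UMIs (18.8%), with 40 of 929 cells positive (4.31%). In cluster A 4 of 760 tumor cells were positive (0.526%, 0.144% to 1.34%), and in cluster H 3 of 434 (0.691%). Thinned to 3800 UMIs, the shares were 4.45% in B, 2.49% in C, 0.141% in A and 0.239% in H. No cell type that should lack *Ptgs2* was present in number, so no background share from free RNA is given. The mixed cluster M had the highest tumor level, 134 CPM (105 to 167) from 75 UMIs, with 8 of 49 cells positive. Without it the log2 ratio of *Ptgs2* between libraries was 5.67.

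**Figure D2:**
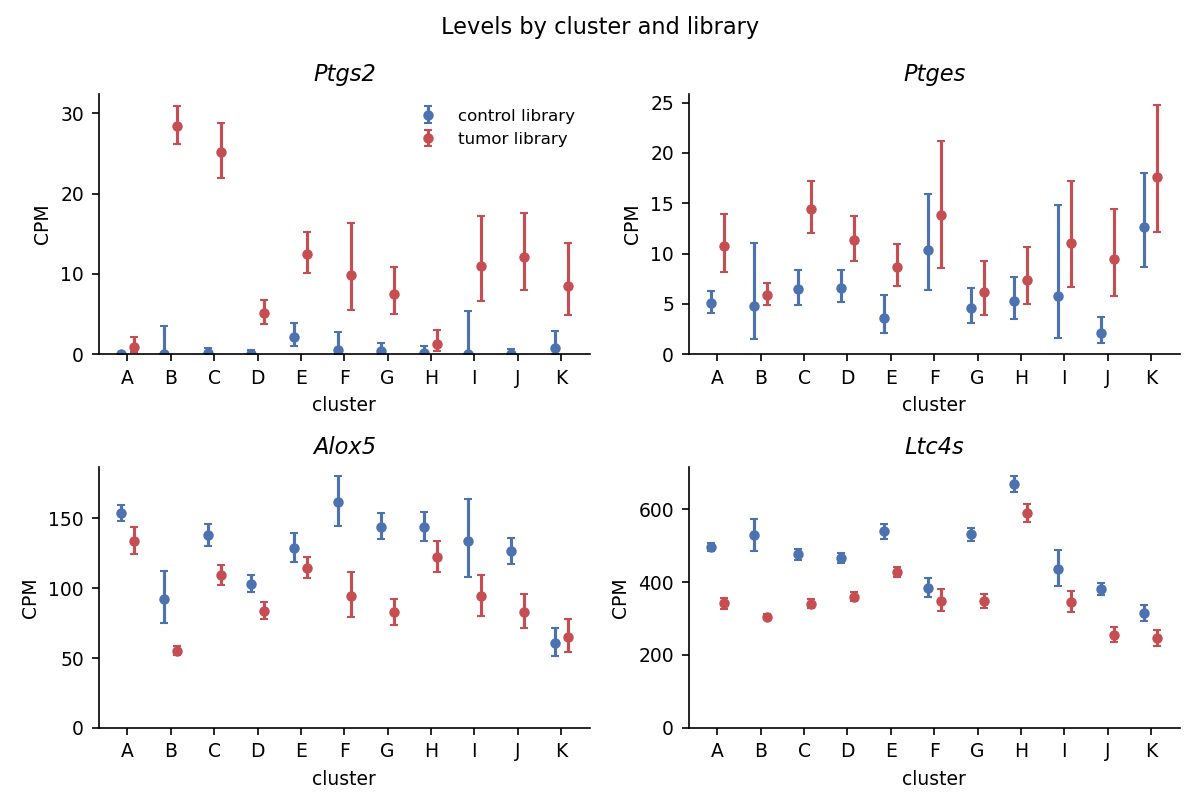
Levels of *Ptgs2*, *Ptges*, *Alox5* and *Ltc4s* in CPM in the 11 clusters with at least 50 cells in each library, control in blue and tumor in red, with exact 95% Poisson intervals. Tumor points of *Ptgs2* lie highest in clusters B and C, while for *Ltc4s* the tumor point is below the control point in all 11.

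The other genes had different patterns over the same clusters. *Ltc4s* was lower in tumor in 11 of 11 clusters, with log2 ratios from −0.79 in cluster B to −0.14 in cluster F, where the interval reached above 0 (−0.30 to 0.02). Its level was highest in cluster H in both libraries, 670.0 CPM in control and 590 CPM in tumor. *Alox5* was lower in tumor in 10 of 11 clusters, with the exception of cluster K (60.6 CPM in control and 65.1 CPM in tumor). Its lowest tumor level was in cluster B, 55.1 CPM (51.9 to 58.5), where control cells had 92.2 CPM (74.8 to 112). *Ptges* was higher in tumor in 11 of 11 clusters, but 6 of these intervals spanned 0, among them that of cluster B. Its tumor level was 17.6 CPM in cluster K, 14.5 CPM in cluster C (12.0 to 17.2) and 5.93 CPM in cluster B (4.91 to 7.10). *Ptgs1* was higher in tumor in 9 of 11 clusters, by a log2 ratio of up to 1.19 in cluster J. Among these, the intervals of clusters D (0.02, −0.21 to 0.24), I (0.13, −0.75 to 1.09) and K (0.55, −0.10 to 1.20) spanned 0. The *Ptgs1* level was lower in tumor in cluster B (58.0 CPM in control and 41.1 CPM in tumor). It was nearly level in cluster E (29.27 CPM in control and 29.23 CPM in tumor), as in cluster D. *Alox5ap* was highest in cluster H in both libraries, 864 CPM in control and 852 CPM in tumor. *Tbxas1* was highest in the low-depth cluster F in both libraries, 234 CPM in control and 222 CPM in tumor. *Ptges3* was highest in the cell cycle cluster J, 344 CPM in control and 315 CPM in tumor. *Hpgds* ranged from 7.58 to 15.9 CPM and *Lta4h* from 48.5 to 84.1 CPM in tumor cells over the clusters with at least 50 tumor cells.

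Most *Ptgs2* transcripts were held by few cells. Of the 296 tumor cells with a *Ptgs2* UMI, 108 had 1, 65 had 2, 45 had 3 or 4 and 78 had 5 or more, and these 78 held 65.8% of the UMIs. The highest tumor cell had 31 UMIs. Of the 11 control cells, 8 had 1, 2 had 2 and 1 had 8. The cells with *Ptgs2* were deeper, with a median of 11494 UMIs against 8182 in tumor cells without it, and 7.09% of them were among the cells with the highest doublet scores, against 5.35%. Removal of those cells left 275 positive cells in tumor.

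**Figure D3:**
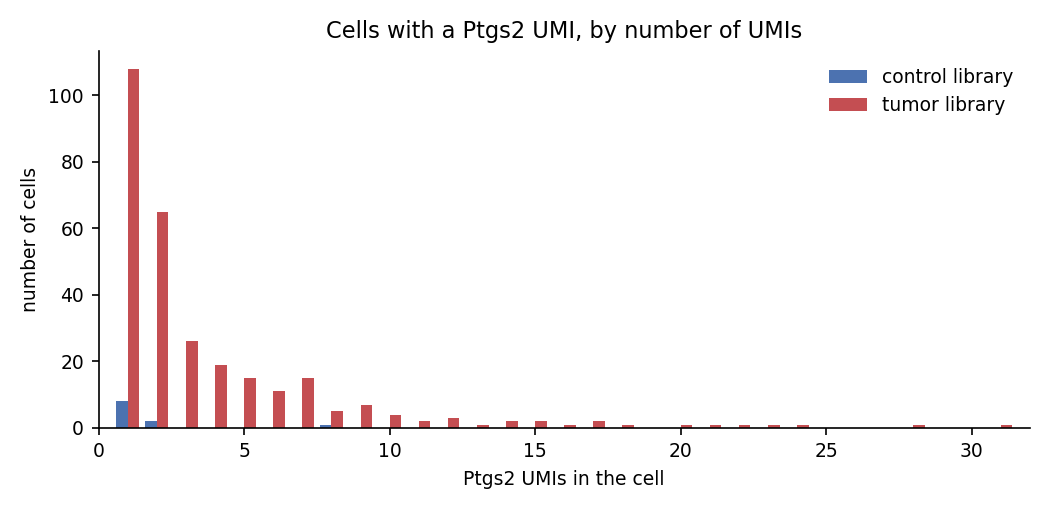
Number of cells (vertical axis) by the number of *Ptgs2* UMIs in the cell (horizontal axis), control in blue and tumor in red, for the 11 control and 296 tumor cells with at least 1. Tumor cells form a tail up to 31 UMIs, and the control library has 1 cell above 2 UMIs, with 8.

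Within the tumor library, cells with a *Ptgs2* UMI had lower levels of *Alox5* and *Ltc4s*, while the intervals for *Ptgs1* and *Ptges* span 0. *Alox5* was at 45.6 CPM in cells with *Ptgs2* and 89.7 CPM in cells without it (log2 ratio −0.98, −1.20 to −0.76), and *Ltc4s* at 241 CPM with and 357 CPM without (−0.57, −0.66 to −0.47). The other leukotriene genes and *Ptges3* were lower by less, with log2 ratios of −0.26 for *Lta4h* (−0.48 to −0.05), −0.19 for *Ptges3* (−0.30 to −0.09) and −0.17 for *Alox5ap* (−0.24 to −0.11). The summed AM markers, which in the whole tumor library were mostly *Chil3*, were also lower in cells with *Ptgs2*, at 10819 against 15248 CPM (−0.50, −0.51 to −0.48). The log2 ratio of this sum was −0.47 within cluster B and −0.09 within cluster C. The part of these markers in the ratios of the synthesis genes was not tested. In the 11 control cells with *Ptgs2* the level of *Ltc4s* was instead higher, at 619.96 against 488 CPM (0.34, 0.05 to 0.63), and *Alox5* was at 104 against 133 CPM (−0.35, −1.13 to 0.33). The ratio of *Alox5* was −0.60 within cluster B (−0.97 to −0.25) and −0.85 within cluster C (−1.40 to −0.35), and that of *Ltc4s* was −0.53 and −0.40. *Ptges*, whose enzyme uses the prostaglandin H that cyclooxygenases make, was at 11.7 CPM with and 9.23 CPM without *Ptgs2*, and the interval of its log2 ratio spans 0 (−0.14 to 0.78). *Ptgs1* was at 34.2 CPM with and 33.5 CPM without *Ptgs2* (log2 ratio 0.03, −0.24 to 0.29), while within cluster B the ratio was −0.46 (−0.87 to −0.07). *Hpgds* was at 15.4 CPM with and 10.8 CPM without *Ptgs2* (log2 ratio 0.50, 0.09 to 0.89), and within cluster B at 18.0 and 10.4 CPM (0.79, 0.21 to 1.32). *Tbxas1* was at 142 CPM with and 155 CPM without *Ptgs2* (log2 ratio −0.12, −0.25 to 0.00). At the thinned depth 3 of the 162 tumor cells with *Ptgs2* also had a *Ptges* UMI (1.85%), against 3.39% of the cells without it, and 24 had an *Alox5* UMI (14.8%), against 28.8%. An *Ltc4s* UMI was seen in 61.1% of these 162 cells, against 68.5% of the cells without *Ptgs2*. The interval of that difference spans 0 (−15.5 to 0.20 percentage points). At the main setting, 0 of the 9 genes were past 2-fold in either direction, beside 5.98% of all genes higher and 4.17% lower. Among genes with at least 20 UMIs in the cells with *Ptgs2*, as the 9 had, these shares were 3.44% and 0.548%. The same 0 of 9 held without cluster M (3.37% higher, 4.86% lower), within cluster B (2.01%, 4.5%) and within cluster C (3.19%, 5.95%), where the shares among genes with at least 20 such UMIs were 1.79% and 0.554%, 1.04% and 0.143%, and 1.11% and 0.126%. It did not hold for *Alox5* under other settings. Its log2 ratio was −1.23 when at least 2 *Ptgs2* UMIs were asked for and −1.03 without the highest doublet scores, both past 2-fold lower.

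Some inflammatory genes, but not the whole list, were higher in tumor cells with *Ptgs2*. Of 15 inflammatory genes with at least 20 UMIs, 6 were past 2-fold higher in tumor cells with *Ptgs2*, against the 5.98% of all genes, and 1 was lower, *Il10*, on a single UMI. The 6 were the neutrophil-attracting chemokine genes *Cxcl1* (log2 ratio 2.12), *Cxcl3* (1.44) and *Cxcl2* (1.12), the NF-κB regulator gene *Nfkbiz* (1.17), and the cytokine genes *Il6* (1.09) and *Il1b* (1.07). The rest of the list reached at most 0.87 (*Il1a*). *Tnf* (0.25) and *Nlrp3* (0.18) differed little, and the intervals of *Osm* (−0.03) and *Ccl3* (0.06) span 0. Without cluster M there were again 6 of 15, within cluster B 3 of 14 and within cluster C 4 of 14, beside the 3.37%, 2.01% and 3.19% of all genes. Within cluster B the ratios were 1.82 for *Cxcl1*, 2.04 for *Cxcl3*, 0.54 for *Il1b* and 0.14 for *Il6* (−0.18 to 0.45). Within cluster C they were 1.76, 1.23, 1.24 and 1.64. Of the 16 immediate early and dissociation response genes, which a warm digestion can raise, 0 were past 2-fold higher and 1 lower, *Hspa1b*, at 159 CPM in cells with *Ptgs2* and 320 CPM in cells without it, and 0 were past 2-fold lower without cluster M. Within cluster C, *Ier3* was past 2-fold higher (1.03, 0.86 to 1.19). Between the libraries, 9 of the 15 inflammatory genes and 4 of the 16 response genes (*Ier3*, *Nr4a1*, *Hspa1a* and *Hspa1b*) were past 2-fold higher in tumor, beside 6.02% of all genes. Past 1.5-fold, 10 genes of each list were higher, beside 9.79% of all genes, and 0 were lower, beside 13.7%. The median log2 ratio was 1.10 for the inflammatory list and 0.75 for the response list, beside −0.07 for all genes. The part of this response in the *Ptgs2* level was not tested. In the 11 control cells with *Ptgs2*, the genes at 100 CPM or more with the largest ratios were *Cxcl1* (184 against 25.9 CPM) and *Il1b* (687 against 134 CPM), followed by *Inhba*, *Mmp12*, *Ing2*, *Fdps*, *Idi1*, *Crip1*, *Egr1* and *Gadd45g*. In the same control cells *Cxcl3*, which was under that level, had a log2 ratio of 2.42 (1.29 to 3.36) on 9 UMIs, *Nfkbiz* 1.18 (0.26 to 1.95), *Egr1* 1.44 (1.01 to 1.85) and *Ier3* 1.28 (0.83 to 1.70).

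**Figure D4:**
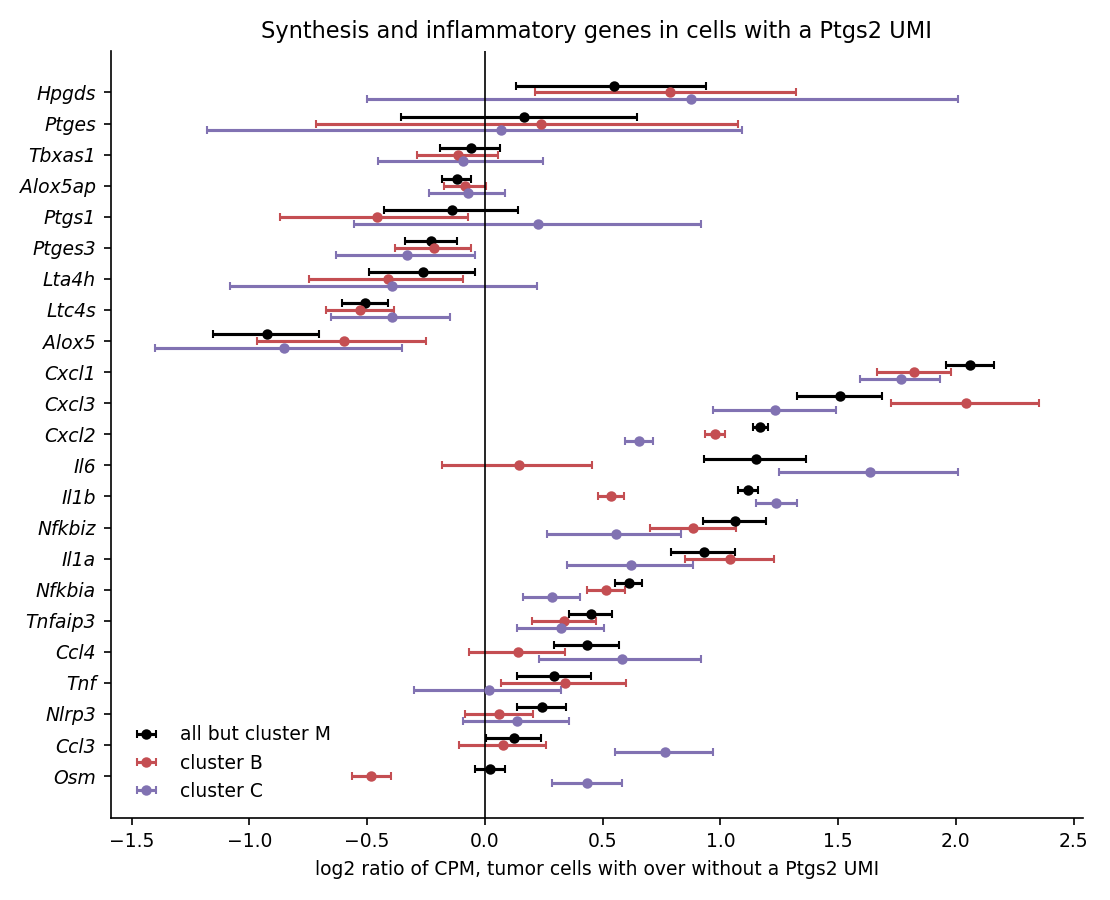
Log2 ratio of CPM in tumor cells with over tumor cells without a *Ptgs2* UMI, for 9 synthesis genes (top) and 14 inflammatory genes (bottom), with exact 95% intervals. Black points leave out cluster M, and red and violet points are within clusters B and C; *Cxcl1* and *Cxcl3* lie right of 0 and *Alox5* and *Ltc4s* left of 0 in all 3.

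Over all tumor cells with *Ptgs2*, the 10 genes with the largest ratios, among genes at 100 CPM or more in those cells, were *Nppc*, *Dcn*, *Col3a1*, *Igfbp4*, *C1qb*, *Apoe*, *Ifitm3*, *Ccl2*, *Cxcl1* and *Isg15*. The first 4 are leading genes of cluster M. Without that cluster's 8 positive cells the list began with *C1qb* (log2 ratio 3.58), a complement gene of monocyte-derived and tissue macrophages, *Apoe* (2.90), *Ifitm3* (2.24) and *Cxcl1* (2.06). The summed monocyte and TAM markers were at 343 CPM in these cells with *Ptgs2* and 47.0 CPM in those without it. Among all kept tumor cells, 125 of the 296 with *Ptgs2* had at least 1 UMI of that list (42.2%), against 16.1% of the cells without *Ptgs2*. These shares are not thinned, and the median depth of the cells differed (11494 UMIs with and 8182 without *Ptgs2*). Without every cell holding such a UMI the log2 ratio of *Ptgs2* between libraries was 5.31. Of the 1147 tumor UMIs, 549 lay in the 17.2% of tumor cells with such a UMI and 598 in the others. A cell with no UMI of the list is not thereby shown to lack these genes. The part of monocyte-derived cells in the *Ptgs2* level was not tested.

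The wider pathway was read from 57 other eicosanoid genes, of which 8 had no UMI and 37 had at least 20. Past 2-fold, 5 of the 37 were higher in tumor and 1 was lower, beside 6.02% and 6.91% of all genes, and past 1.5-fold 8 were higher and 5 lower, beside 9.79% and 13.7%. Among phospholipases, which release or cleave the lipid precursors, *Pla2g7*, the platelet-activating factor hydrolase, had 8.47 CPM in control and 21.5 CPM in tumor (log2 ratio 1.34), *Pla2g2d* had 0.262 and 1.64 CPM (2.65), and *Pla2g4c* had 0.324 and 0.116 CPM (−1.48, −2.86 to −0.24). The main cytosolic phospholipase of arachidonic acid release, *Pla2g4a*, had 42.1 CPM in control and 40.4 CPM in tumor. *Fam213b*, a prostamide and prostaglandin F synthase, had 1.33 and 4.08 CPM (1.62). Of other leukotriene and lipoxygenase genes, *Aloxe3* (−0.79), *Mgst3*, a glutathione transferase related to *Ltc4s* (−0.77), and *Ephx2* (−0.75, −1.72 to 0.18) were past 1.5-fold lower. *Slco2a1*, the prostaglandin uptake carrier, was past 1.5-fold higher on 16 and 26 UMIs (0.62, −0.34 to 1.61). Of the 26 tumor UMIs, 13 lay in cells with *Ptgs2*. Of the receptors, the prostacyclin receptor *Ptgir* had 24.6 and 57.3 CPM (1.22), the cysteinyl leukotriene receptors *Cysltr1* and *Cysltr2* had log2 ratios of 0.61 and 2.50, the leukotriene B receptors *Ltb4r1* and *Ltb4r2* had 0.74 and −0.72 (−1.61 to 0.14), and the prostaglandin E receptors *Ptger2* and *Ptger4* had −0.11 and −0.13. *Cysltr2* rested on 4 and 24 UMIs. In tumor cells without *Ptgs2*, *Ltb4r1* had 60 UMIs, and 44 when cluster M was left out. Among the tumor cells, *Pla2g7* was also higher in cells with *Ptgs2*, at 59.1 CPM against 19.3 CPM (log2 ratio 1.61, 1.40 to 1.82), with 2.002 within cluster B (1.72 to 2.28) and 1.60 within cluster C (0.87 to 2.27), and *Ptgir* was at 66.6 and 56.8 CPM, with −0.01 within cluster B (−0.26 to 0.24). *Pla2g7* in these cells was singled out after its values were seen, as were *Pla2g4a*, *Ptger2* and *Ptger4*. The counts of *Ptgds*, *Alox12* and *Oxgr1* were 0 in both libraries, and *Alox15* had 2 and 1 UMIs.

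**Figure D5:**
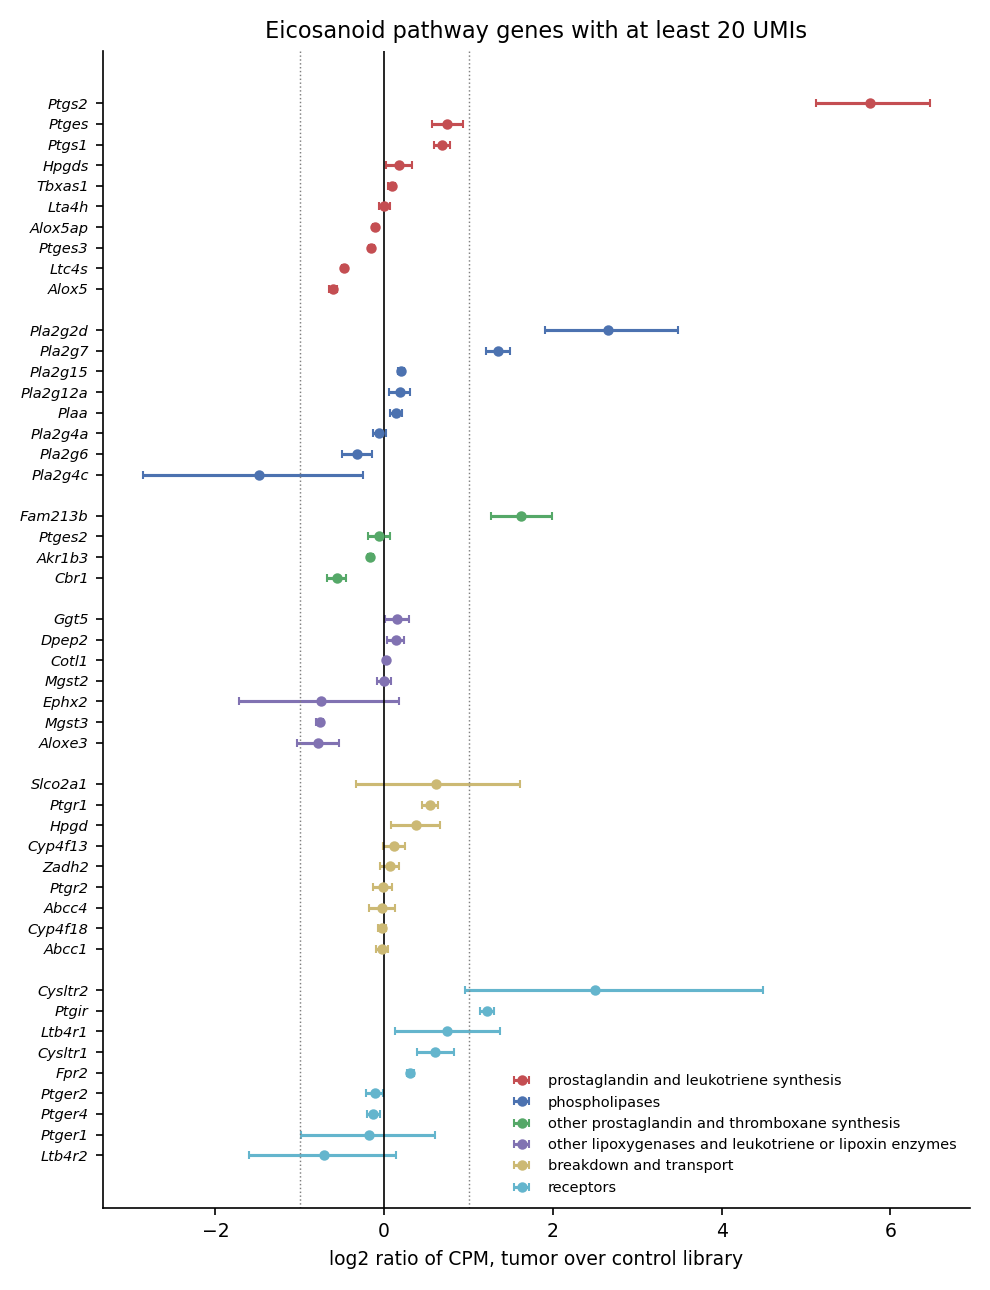
Log2 ratio of CPM, tumor over control library, for the 10 synthesis genes (top, red) and 37 other eicosanoid genes with at least 20 UMIs, grouped by role, with exact 95% intervals. Dotted lines mark 2-fold, and *Ptgs2* at 5.76 lies beyond every other gene, with *Pla2g2d* next at 2.65.

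Over the 25 cluster-by-library sums of at least 50 cells, the genes with the pattern most like a synthesis gene were ranked by Pearson correlation of log2(CPM + 1), given as a description since the sums share libraries and depth. For *Ptgs2* they were *Nfkbid* (0.88), *Mmp14* (0.86), *Plk2* (0.86), *Klhl6* (0.85) and *Hk2* (0.85), and for *Ptgs1* *Cd93* (0.74), *Acer3*, *Zranb3*, *St8sia4* and *Mfhas1*. For *Ptges* they were *Cd1d1* (0.82), *Por*, *Gpr137b*, *Bhlhe41* and *Ncoa3*, for *Ptges3* *Prelid3b* (0.87), *Phf5a*, *Zc3h15*, *Oat* and *Alyref*, for *Hpgds* *Col4a3bp* (0.78), *Capn15*, *Abcc5*, *Fkbp15* and *Gla*, and for *Tbxas1* *Itgax* (0.87), *Lrp1*, *Ubr3*, *Ric1* and *Itgav*. In the leukotriene branch, *Alox5* was most like *Cyb561a3* (0.92), *Fam69a*, *Gpr155*, *Bzw2* and *Fam129a*, and *Ltc4s* most like *Ear2* (0.83), *Ech1*, *Serpinb1a*, *Atraid* and *Unc119*. *Alox5ap* was most like *Itm2b* (0.84), *Gngt2*, *Cd300c2*, *Comtd1* and *Tnfaip8l2*, and *Lta4h* most like *Rps6ka1* (0.73), *Casd1*, *Tm6sf1*, *Seh1l* and *Wipf1*.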

How the data were processed

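The authors sorted AMs, made droplet libraries with the 10x Genomics 3′ kit and deposited raw UMI counts per gene and barcode, 1 table for each condition per the labels. The study's methods also describe hashtag reads from which each barcode's sample was estimated. These were not used here, so cells take the condition of their table. The submitters' processing notes name Cell Ranger 4.0.0, bcl2fastq 2.20 and mm10, while the study's methods name a later Cell Ranger version. The 10 genes, the gene lists and the marker lists were chosen with earlier results of these data known. From the deposited counts, UMIs were summed per library or cluster and given as CPM with exact Poisson intervals at 95%, ratios with exact conditional binomial intervals, and shares with exact Clopper-Pearson intervals, from which intervals of differences were built by adding squared distances. PCR duplicates are collapsed by UMI, and intervals and floors (3 UMIs) cover counting error only. Cells are not replicates, so no model was fitted and no p-value computed.

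Symbols came from GENCODE M21 (GRCm38). Genes with at least 20 UMIs were compared. Clustering used 2000 variable genes (the 10 genes and the 57 other eicosanoid genes left out), 100 components, a mutual nearest neighbour correction with 20 neighbours between libraries and the Leiden method at resolution 1. Scrublet's own threshold marked 3 control and 8 tumor cells as doublets, under 0.5%, and was taken not to have worked, so no cell was removed and removal of cells scored above the limit of the highest 6% (277 and 415 cells, fewer than 6% because cells tied at that limit stayed) is an alternative. Named genes were all 10, the eicosanoid genes past 1.5-fold, list genes past 2-fold between cells with and without *Ptgs2* (at most 6), the 10 largest ratios at 100 CPM or more, and the 5 most alike at 50 CPM or more. *Ptgr3* was not found apart from *Zadh2*, and of the 2 identifiers of *Dpep2* that with more UMIs was used. The 3′ UTR is the longest of a gene's basic transcripts with a stop codon. The scripts for ratios, thinning and clusters were tested on simulated data. Alternatives changed the filter, doublets, scaling, thinning, clusters and cells. Work used Python 3.11.15, numpy 2.4.6, scipy 1.17.1, scanpy 1.11.5 and leidenalg 0.10.2.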

Additional observations from a re-analysis of the deposited data

Results flagged for a closer look

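The quality filter left out 1509 tumor and 2300 control barcodes, and these unused barcodes also carried a difference. *Ptgs2* was at 6.71 CPM in the tumor barcodes left out (3.57 to 11.5, 13 UMIs) and at 1.001 CPM in the control barcodes left out (0.206 to 2.93, 3 UMIs). *Ptges* was at 14.98 CPM in the tumor barcodes left out (10.0 to 21.5) and at 5.01 CPM in the control ones (2.80 to 8.26). Both were singled out because they come from data outside the comparisons, lie at least 2-fold above control and have intervals apart from it. Among the other genes in these barcodes, *Ptgs1* (20.1 and 12.3 CPM in tumor and control) and *Lta4h* (57.8 and 33.03 CPM) were higher in tumor by less than 2-fold. *Alox5* was past 2-fold lower in tumor, at 34.1 CPM (26.4 to 43.4) against 79.4 CPM (69.6 to 90.2), a log2 ratio of −1.22 (−1.64 to −0.82). *Alox5ap* (−0.59, −0.77 to −0.41), *Ltc4s* (−0.25, −0.43 to −0.07) and *Ptges3* (−0.28, −0.55 to −0.02) were lower by less than 2-fold, and the intervals of *Hpgds* and *Tbxas1* span 0.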

How the results depend on the processing

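Of 12 alternatives, 10 moved the *Ptgs2* log2 ratio (5.76) by less than its interval, and it was 7.32 without the 5 cells with the most *Ptgs2* UMIs in each library, since 14 of the 20 control UMIs lie in them, and 4.82 with clusters weighted as in control. *Ptgs2* was past 2-fold, and the other 9 genes were not, in 14 of 14 alternatives. The direction of each ratio between libraries was kept in all 12 except for *Lta4h*, with values from −0.04 to 0.07. The difference of the *Ptgs2* share (2.32 points) was 1.70 at 1900 UMIs, 2.77 at 5000 UMIs, 3.68 unthinned and 1.15 when at least 2 UMIs were asked for, and the 296 tumor cells with *Ptgs2* became 188 with at least 2 UMIs. The *Alox5* log2 ratio of tumor cells with over without *Ptgs2* (−0.98) passed 2-fold with at least 2 UMIs (−1.23). It also did so without the highest doublet scores (−1.03). The share of tumor *Ptgs2* UMIs in the leading cluster (49.3%) was 23.6% at resolution 1.5 and 46.0% with no library correction, where the leading cluster held 321 and 1183 tumor cells instead of 2001. The alternatives that leave out tumor-rich clusters or cells with monocyte and TAM markers, weight clusters, or compare cells with and without *Ptgs2* outside cluster M or within clusters B and C were chosen after seeing the data. No paired analysis was possible because each condition has 1 library. Depth limits the control level of *Ptgs2*, with 20 UMIs, and any comparison within the 11 control cells.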
